A study of Mus musculus with 3 samples.

Results

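The 30 genes described here make or regulate cholesterol and fatty acids. They were taken by symbol, from a list of the pathway's enzymes and regulators, out of the 31053 genes of the count tables. Their transcripts were counted by single-cell RNA sequencing in organoids grown from Lgr5+ cochlear progenitor cells of C57BL/6 mice, with 1 library for each of 3 groups. The expansion group was passage 2 organoids on day 8 in a medium holding LPA, Y-27632 and CHIR99021 beside growth factors, namely IGF at 50, EGF at 20 and bFGF at 10 ng/mL. The day 5 and day 25 groups were organoids that had first been expanded in that medium and were then moved to one with Shh, RA, BDNF, bFGF and A83-01, to which LY4115775 was added up to day 5 and left out afterwards. The number and age of the mice are not given in the sources used here, and each library came from dissociated organoids sorted for living single cells. Each group held 1 library, so no test between groups was made, all intervals are 95% counting intervals, and a difference between groups cannot be told apart from a difference between libraries.

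After filters on genes per barcode and mitochondrial share, the expansion, day 5 and day 25 libraries kept 26048, 13201 and 6106 cells, with medians of 4717, 5853 and 8474 unique molecular identifiers (UMIs) per cell. Ribosomal protein genes took 33.1%, 22.6% and 15.0% of these UMIs, called doublets were fewer than expected in each library (6.96%, 4.69% and 2.52% against 22.4%, 11.1% and 5.01%), and any 2 libraries shared at most 109 cell barcodes. Cells were grouped by genes that are no members. Epcam-positive cells (at least 1 UMI of Epcam, an epithelial adhesion molecule) numbered 17378, 7113 and 3832. Pou4f3-positive cells (at least 2 UMIs of Pou4f3, a transcription factor of hair cells) numbered 165, 329 and 1538, and Otor-high cells (no Epcam UMI and at least 20 UMIs in 10000 of Otor, a secreted protein of the otic capsule and mesenchyme) numbered 2078, 3594 and 270. Marker lists were summed without the gene of the gate, in CPM (UMIs of a gene scaled to the library or class total, as counts per 1e6 UMIs). The other 7 hair cell markers reached 1405, 3400 and 7033 CPM in Pou4f3-positive cells against 40.7, 60.1 and 199.5 in Epcam-positive cells, with Ocm at 0 in Pou4f3-positive cells of expansion. The other 6 mesenchyme markers reached 396, 915 and 1021 CPM in Otor-high cells against 26.1, 29.6 and 19.1 in Epcam-positive cells. Among these 6, Col1a2 went the other way on day 5, at 6.60 CPM in Otor-high against 7.81 in Epcam-positive cells. Postn did so in expansion, at 0 against 0.039 CPM, where Col1a2 was at only 0.23 CPM in Otor-high cells. The other 4 epithelial markers reached 143, 187 and 2682 CPM in Epcam-positive cells against 13.3, 11.5 and 48.2 in Otor-high cells. Of the 4 endothelial markers Emcn (604, 660 and 775 CPM) and Kdr (15.3, 26.3 and 2.86 CPM) were higher in Otor-high than in Epcam-positive cells, where Kdr was at 1.25, 0.59 and 0.18 CPM, and Cdh5 and Pecam1 were under 1 CPM. The part of endothelial cells in that class was not tested. Adipocyte markers summed to under 1 CPM in each class.

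Cholesterol is built from acetyl-CoA through mevalonate, isoprenoid diphosphates and squalene, and fatty acids are built by acetyl-CoA carboxylase and fatty acid synthase and then desaturated or lengthened. Transcription of most of these enzymes is driven by the sterol regulatory element binding proteins, which the escort protein Scap carries from the endoplasmic reticulum for activation when membrane sterol is low and which Insig1 and Insig2 hold back when sterol is high. In the inner ear, cholesterol of the hair cell membrane is known to affect membrane stiffness, ion channels and electromotility.

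RefSeq promoter windows (GRCm38.p6, 250 bases before to 50 bases after a start) were found for 24 of the 30 genes, 32 windows in all. On either strand, none of the 32 held the 10-base sterol regulatory element (0.0913% of all 32851 promoters did), 2 held its core TCACCCCA (6.25%, against 1.56% of all), and none held TCACGTGA, an E-box form (0.974% of all). The CCAAT box, written CCAAT and bound by NF-Y, was in 65.6% of the member windows against 37.4% of all promoters, and GGGCGG, the GC box bound by Sp1, in 75% against 35.7%. Windows are shown for 4 genes, cut at or before the start of the annotated gene and chosen after the search: both windows with the core, and those of Insig1 and Hsd17b7, the members with the largest swings described below. Capitals mark the core or a CCAAT box on either strand (ATTGG on the strand printed), and no 2 matches overlap. A match describes the letters only. The windows lie at chr13:119690101-119690350 (plus strand) for Hmgcs1, chr15:82147019-82147180 (plus) for Srebf2, chr5:28071162-28071362 (plus) for Insig1 and chr1:169969242-169969455 (minus) for Hsd17b7.
Hmgcs1: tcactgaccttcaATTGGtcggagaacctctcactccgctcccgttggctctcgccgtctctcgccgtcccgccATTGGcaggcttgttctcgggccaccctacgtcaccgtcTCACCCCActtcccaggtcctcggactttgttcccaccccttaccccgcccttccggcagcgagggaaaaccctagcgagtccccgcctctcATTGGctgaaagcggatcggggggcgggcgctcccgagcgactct
Srebf2: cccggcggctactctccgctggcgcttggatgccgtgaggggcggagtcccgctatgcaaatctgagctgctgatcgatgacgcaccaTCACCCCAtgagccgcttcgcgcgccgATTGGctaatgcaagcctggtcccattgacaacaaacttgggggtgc
Insig1: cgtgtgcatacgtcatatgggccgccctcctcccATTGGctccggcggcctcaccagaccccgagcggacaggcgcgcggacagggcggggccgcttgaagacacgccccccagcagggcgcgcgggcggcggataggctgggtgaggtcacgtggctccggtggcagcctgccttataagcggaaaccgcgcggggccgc
Hsd17b7: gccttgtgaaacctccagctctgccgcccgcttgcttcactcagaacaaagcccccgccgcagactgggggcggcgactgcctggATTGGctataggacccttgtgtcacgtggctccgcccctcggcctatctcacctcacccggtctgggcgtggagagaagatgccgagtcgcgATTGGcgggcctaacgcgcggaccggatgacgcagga
The core stood 137 bases before the end of the Hmgcs1 window and 74 bases before the end of the Srebf2 window, and the windows held 3 and 1 CCAAT boxes. The Insig1 window held 1 CCAAT box and the Hsd17b7 window 2, with no core in either.

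In whole libraries, many cholesterol synthesis genes were lower on day 5 than in expansion, and several of these were higher again on day 25. Of the 30 members, 29 reached 20 CPM in at least 1 library and 18 in all 3, and only Lss (lanosterol synthase) stayed below it, at 15.3, 5.91 and 8.24 CPM. A gene was called higher or lower at a 2-fold difference of CPM + 1, among genes with at least 20 CPM in either pool. On day 5 against expansion 1 member was higher and 11 were lower of 28, beside 15.2% of 6421 genes higher and 7.83% lower, with a median log2 ratio of -0.92 over members and 0.18 over all genes. On day 25 against day 5 7 members were higher and none lower of 25, beside 21.1% higher and 5.81% lower of 7182 genes, with medians of 0.30 and 0.31, so the members' median lay at that of all genes. On day 25 against expansion 3 were higher and 7 lower of 29, beside 33.3% and 9.18% of 7287 genes. The medians of that last pair, -0.05 and 0.51, moved to -0.64 and -0.08 with TMM scaling, which called 1 member higher and 12 lower. On day 5 against expansion TMM scaling moved the medians to -1.23 and -0.13 and called none higher and 17 lower, whereas equal weight per cell called 6 lower. All shares over all genes given here are of the main CPM scaling. Counts of members under TMM or another alternative therefore cannot be set against them. Over all 7 alternatives for whole libraries the lower calls of Acat2, Mvd, Idi1, Msmo1, Dhcr7 and Insig1 on day 5 held. Those of Hmgcs1, Fdps, Sqle, Srebf2 and Acly and the higher call of Insig2 did not. On day 25 against day 5 the higher calls of Idi1, Msmo1, Hsd17b7 and Insig1 held, and those of Hmgcs1, Cyp51 and Srebf2 did not. Of these, Hsd17b7 had not been lower on day 5, at 19.9 CPM against 20.0 in expansion. The pairs share libraries and are not independent.

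**Figure D1:**
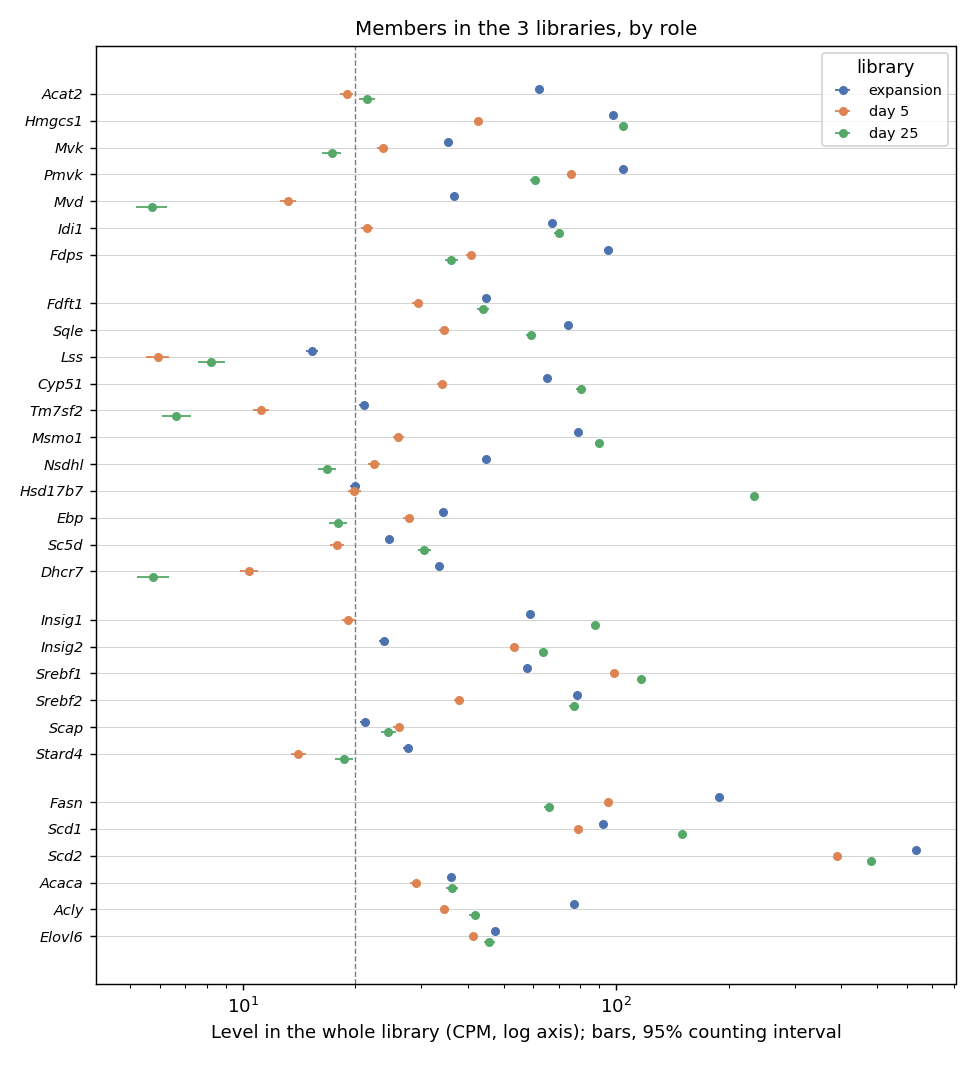
Level of each member in the 3 whole libraries in CPM on a log axis, grouped by role, with 95% counting intervals as bars and 20 CPM as the dashed line. Hsd17b7 stood at 20.0, 19.9 and 234 CPM, while Mvd and Dhcr7 went down to 5.70 and 5.75 CPM on day 25.

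Make-up of the libraries differed, so the same genes were followed within Epcam-positive cells. There 15 of 29 members were lower and none higher on day 5 than in expansion, beside 10.5% lower and 14.4% higher of 6366 genes, with a median log2 ratio of -1.04 over members and 0.10 over all genes. On day 25 against day 5 9 of 23 were higher and none lower (18.6% and 5.42% of 6753 genes), with medians of 0.52 and 0.27. On day 25 against expansion 2 were higher and 8 lower of 29 (28.4% and 10.6% of 6972 genes), with medians of -0.30 and 0.38. Of the 15 lower calls on day 5, 13 held under each of the 9 alternatives of scaling, filter, gate and depth, and Nsdhl and Fasn did not. Of the 9 higher calls on day 25 against day 5, 6 held, and Sc5d, Srebf2 and Scd1 did not. The 6 include Hsd17b7, for which the part of free RNA from Pou4f3-positive cells was not tested. The 1 CPM filter, counted among the 9 alternatives, leaves ratios unchanged, so no single call could be lost under it.

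Of the early enzymes, which lead from acetyl-CoA to farnesyl diphosphate, Hmgcs1 (HMG-CoA synthase) stood at 103 CPM in Epcam-positive cells of expansion, 34.3 on day 5 and 125 on day 25. It was 3.00-fold lower on day 5 (2.89 to 3.12) and then 3.63-fold higher on day 25 (3.48 to 3.79). Idi1, the isomerase that makes dimethylallyl diphosphate, went through a deeper low point, from 66.4 to 11.7 and back to 62.4 CPM, 5.69-fold down (5.34 to 6.06) and 5.34-fold up (4.98 to 5.73). Both thus differed from expansion by less than 2-fold on day 25, and for Hmgcs1 the log2 ratio of 0.27 turned to -0.15 with TMM scaling.

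The other early enzymes did not return. Acat2, the cytosolic thiolase of the first step, stood at 63.7, 16.4 and 17.9 CPM, and Fdps (farnesyl diphosphate synthase) at 98.4, 29.5 and 24.0 CPM. Mvd, the decarboxylase that yields isopentenyl diphosphate, went from 39.1 to 12.9 and 5.86 CPM, so that day 25 was 6.67-fold below expansion (5.93 to 7.53). The mevalonate kinase gene Mvk (35.7, 19.2 and 12.5 CPM) and the phosphomevalonate kinase gene Pmvk (105, 67.6 and 52.1 CPM) were lower at each later stage, and Pmvk was not called in any of the 3 pairs. Fdps shares its strand with the overlapping models Gm43738 and Gm22935, so its count is uncertain where reads fell in both.

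The enzymes from squalene onward divided in the same way. Msmo1, a methyl sterol oxidase, stood at 83.5 CPM in expansion, 20.0 on day 5 and 93.3 on day 25 (4.18-fold down, 3.98 to 4.39, and 4.67-fold up, 4.43 to 4.93). Cyp51, which removes a methyl group from lanosterol, stood at 68.7, 21.2 and 73.3 CPM, and Sqle, the squalene epoxidase, at 76.7, 28.6 and 50.9 CPM. Sqle was past 2-fold on day 5 and not on the way back (1.78-fold, 1.69 to 1.88). Fdft1 (squalene synthase: 47.3, 28.2 and 49.0 CPM), Sc5d (a sterol desaturase: 25.7, 14.5 and 33.5 CPM) and Hsd17b7 (a 3-ketosteroid reductase: 20.7, 10.1 and 27.5 CPM) were also lowest on day 5. For Hsd17b7 the day 25 value stood beside 845 CPM in Pou4f3-positive cells, and 5.95% of the Epcam-positive cells held a Pou4f3 UMI. The part of free RNA from Pou4f3-positive cells in it was not tested. By contrast Dhcr7, the last reductase before cholesterol, went from 34.3 to 7.46 and 5.26 CPM, 6.52-fold below expansion on day 25 (5.76 to 7.42). Nsdhl (49.1, 23.1 and 16.1 CPM), Tm7sf2 (22.6, 11.3 and 6.15 CPM), both acting on sterol intermediates, and the sterol isomerase gene Ebp (33.1, 24.2 and 17.4 CPM) were lowest on day 25. Tm7sf2 overlaps Vps51 on the same strand, so its count is uncertain too. Other annotated genes or microRNAs share the strand and span of Srebf1, Srebf2, Scd2, Acaca, Acly and Elovl6, whose counts carry the same limit.

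The widest swing among the regulators was that of Insig1, the retention protein whose transcript is itself a target of the sterol regulatory element binding proteins. Insig1 stood at 61.7 CPM in expansion, 12.6 on day 5 and 109 on day 25, 4.91-fold down (4.62 to 5.22) and 8.71-fold up (8.18 to 9.28). Srebf2, the factor known mainly for sterol genes, followed at 83.7, 32.2 and 67.6 CPM, and the sterol carrier gene Stard4 at 27.6, 10.8 and 16.8 CPM. Insig2 and Srebf1 went the opposite way. Insig2 stood at 24.7, 43.8 and 62.9 CPM, 2.55-fold above expansion on day 25 (2.43 to 2.67), and Srebf1, known mainly for fatty acid genes, at 63.8, 107 and 130.5 CPM, 2.05-fold above (1.98 to 2.11). Both calls were lost with TMM scaling, which called none higher and 12 lower of 29 in that pair. Scap stayed between 20.9 and 25.0 CPM.

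Fatty acid genes differed in their course. Fasn, the fatty acid synthase, went from 202 to 97.9 and 69.5 CPM, 2.91-fold below expansion on day 25 (2.80 to 3.01). Acly, which supplies cytosolic acetyl-CoA, stood at 79.7, 31.5 and 45.4 CPM. The stearoyl-CoA desaturase genes Scd1 and Scd2 stood at 98.8, 82.9 and 183 CPM and at 709, 407 and 556 CPM, and Scd1 was 1.86-fold higher on day 25 than in expansion (1.81 to 1.90), short of the 2-fold call. Acaca, the acetyl-CoA carboxylase, and Elovl6, a fatty acid elongase, stayed within 27.6 to 37.5 and 35.2 to 43.1 CPM.

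**Figure D2:**
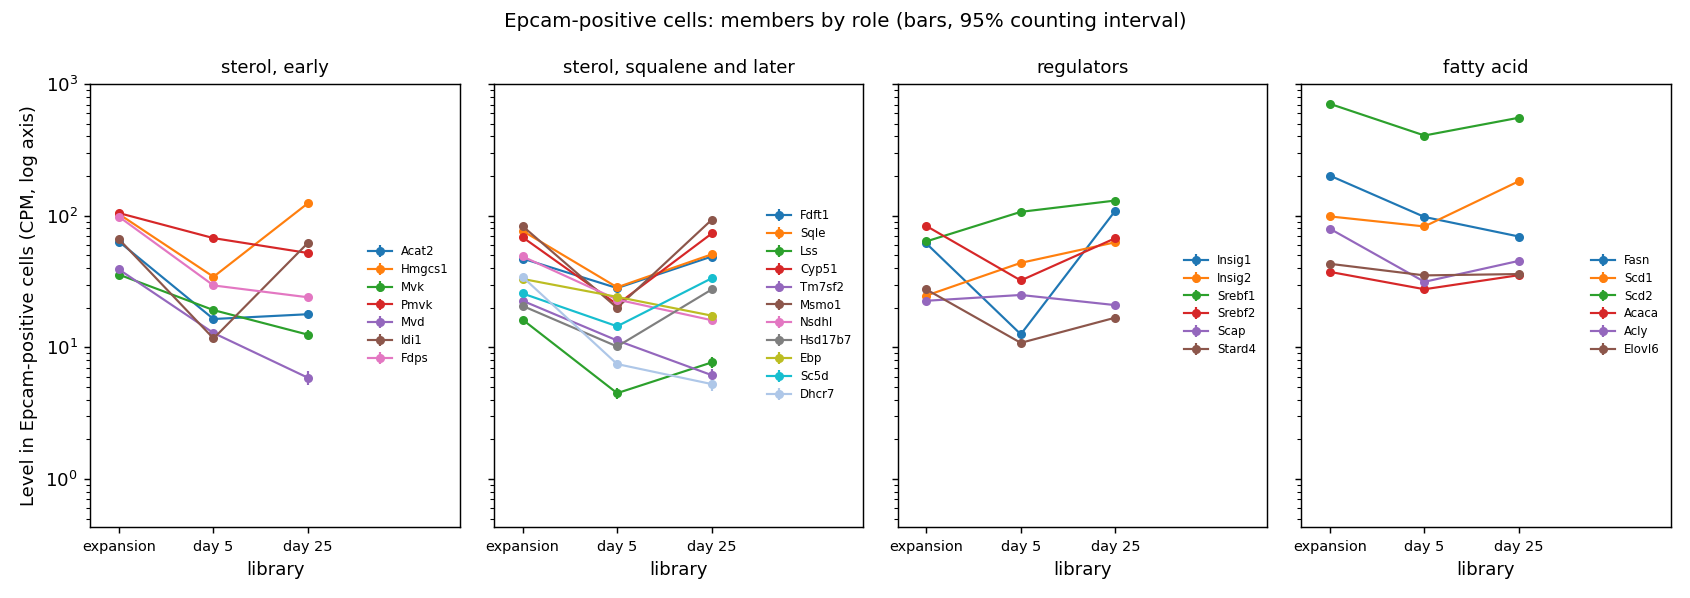
Level of each member in Epcam-positive cells in CPM on a log axis, by role and library, with 95% counting intervals as bars that are mostly smaller than the points. Insig1, Idi1, Msmo1, Cyp51 and Hmgcs1 trace a V with its low point on day 5, whereas Mvd and Dhcr7 step down to 5.86 and 5.26 CPM.

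Division and hypoxia genes also differ between the libraries, and their classes were compared within a library. Dividing Epcam-positive cells (at least 1 UMI of Mki67 or Top2a) numbered 10187 in expansion, 193 on day 5 and 69 on day 25. No member was past 2-fold between dividing and other cells in any library (2.36% of genes higher and 0.126% lower in expansion, 0.12% and 0.0856% on day 5, 0.705% and 0.552% on day 25), and the log2 ratios of tested members lay between -0.56 and 0.68. In cells without a division UMI, whose median depth was 4139 against 8557 UMIs in dividing cells of expansion, Insig1 stood at 50.5 CPM in expansion and 12.3 on day 5. Median depths of dividing and other cells were 21356 and 6171.5 UMIs on day 5 and 11703 and 8706 on day 25. The part of division in the day 5 differences was not tested, nor was the part of depth in these splits. Cells with a UMI of Car9, a hypoxia-induced carbonic anhydrase, numbered 2194, 286 and 75, and no member differed by 2-fold from Car9-negative cells (0.253% of genes higher and 0.0722% lower in expansion, 1.68% and 1.16% on day 5, 2.5% and 1.4% on day 25). The members' log2 ratios lay between -0.70 and 0.40. Car9-positive cells were deeper, with medians of 11349.5, 25973.5 and 16407 UMIs against 5508.5, 6124 and 8686 in Car9-negative cells. The part of depth in this split was not tested. After thinning each cell to 3000 UMIs and applying the gates to the thinned counts, 69 Car9-positive cells were left on day 5, with 2 members higher and 3 lower. This pool held only 207000 UMIs and no share over all genes is given for it, so these counts are not read as a result about the members.

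A split of day 25 Epcam-positive cells at 10 UMIs of the keratin gene Krt8 in 10000, chosen after the values were seen, gave 1420 cells above and 2412 below. No member differed by 2-fold (3.36% of genes were higher and 1.34% lower). Insig1 stood at 112 and 108 CPM, Msmo1 at 95.7 and 91.7 CPM, and Scd1 at 221 and 159 CPM. Insig1 was thus 1.04-fold higher above the split (0.98 to 1.10).

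In Otor-high cells 2 members were higher and none lower on day 5 than in expansion of 28 tested (20.9% and 4.71% of 6160 genes), with medians of -0.07 over members and 0.41 over all genes. With TMM scaling 2 were lower and the members' median was -0.45 against 0.04. Hmgcs1 stood at 67.6, 65.7 and 82.1 CPM, Fdps at 65.6, 66.7 and 17.2 CPM, and Insig1 at 46.0, 38.7 and 63.4 CPM over expansion, day 5 and day 25. The 2 higher members were Insig2, at 22.8 and 81.2 CPM (3.56-fold, 3.07 to 4.15), and Srebf1, at 28.4 and 80.5 CPM (2.83-fold, 2.48 to 3.25). On day 25, with 270 cells, 1 member was higher and 3 lower than on day 5 of 26 (16.8% and 5.28% of 6934 genes), and with TMM scaling none was higher and 6 were lower. Against expansion 3 were higher and 7 lower of 27 (39.3% and 7.02% of 6892 genes), and TMM scaling called 2 higher and 16 lower. The shares are of the main scaling, so the TMM counts cannot be set against them.

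Within the day 5 library several sterol genes stood higher in Otor-high than in Epcam-positive cells. Of 26 members 6 were higher and none lower, beside 10.7% higher and 11.6% lower of 6616 genes, with medians of 0.70 over members and 0.10 over all genes. Idi1 stood at 49.1 against 11.7 CPM (4.20-fold, 3.86 to 4.57), Cyp51 at 67.1 against 21.2 CPM (3.17-fold, 2.96 to 3.39) and Insig1 at 38.7 against 12.6 CPM (3.08-fold, 2.82 to 3.36). These 3 calls held under all 9 alternatives, and those of Fdps, Msmo1 and Hsd17b7 did not. In expansion none was higher and 3 lower of 29 (4.55% and 12.7% of 5714 genes), among them Scd2 at 282 against 709 CPM, and median of ratios scaling called 1 higher and 1 lower. On day 25 none was higher and 2, Fdft1 and Msmo1, were lower of 22 (12.6% and 12.7% of 7326 genes), and stricter gates called neither.

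Pou4f3-positive cells shared part of the time course. On day 5 against expansion 2 members were higher and 10 lower of 27 (16.2% and 9.69% of 6715 genes), with medians of -0.65 and 0.16. Expansion held 165 such cells, and Insig1 rested on 59 UMIs there and 39 on day 5. On day 25 against day 5 7 were higher and none lower of 26 (18.9% and 8.59% of 7117 genes). On day 25 against expansion 1 was higher and 5 lower of 28 (28.9% and 12.5% of 7340 genes). Insig1 stood at 36.6, 9.07 and 34.1 CPM and Idi1 at 78.7, 29.99 and 98.4 CPM, and both were lowest on day 5. Fdps differed from its course in Epcam-positive cells, with 97.3, 79.5 and 71.7 CPM.

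Within libraries, few members differed by 2-fold between Pou4f3-positive and Epcam-positive cells of expansion and more did on day 5. In expansion 1 member was higher and 1 lower of 29 (10.4% and 4.74% of 6249 genes), and 1 higher and 2 lower with TMM scaling. On day 5 8 were higher and 1 lower of 24 (20.1% and 15.9% of 6983 genes), with medians of 0.37 over members and 0.10 over all genes. The higher ones were Mvk, Idi1, Fdps, Sqle, Cyp51, Hsd17b7, Srebf2 and Stard4, of which Sqle, Cyp51 and Srebf2 did not hold under all 9 alternatives. On day 25 3 were higher and 3 lower of 25 (20.3% and 18.1% of 7621 genes), and TMM scaling called 2 higher and 4 lower. Fdps stood at 71.7 against 24.0 CPM (2.99-fold, 2.76 to 3.23) and Mvk at 29.8 against 12.5 CPM (2.39-fold, 2.13 to 2.69). Hmgcs1 stood at 56.3 against 125 CPM (2.22-fold lower, 2.08 to 2.37) and Insig1 at 34.1 against 109 CPM (3.21-fold lower, 2.96 to 3.50). Early enzymes of the pathway thus lay on both sides in the same cells. The Mvk call did not hold under all 9 alternatives.

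**Figure D3:**
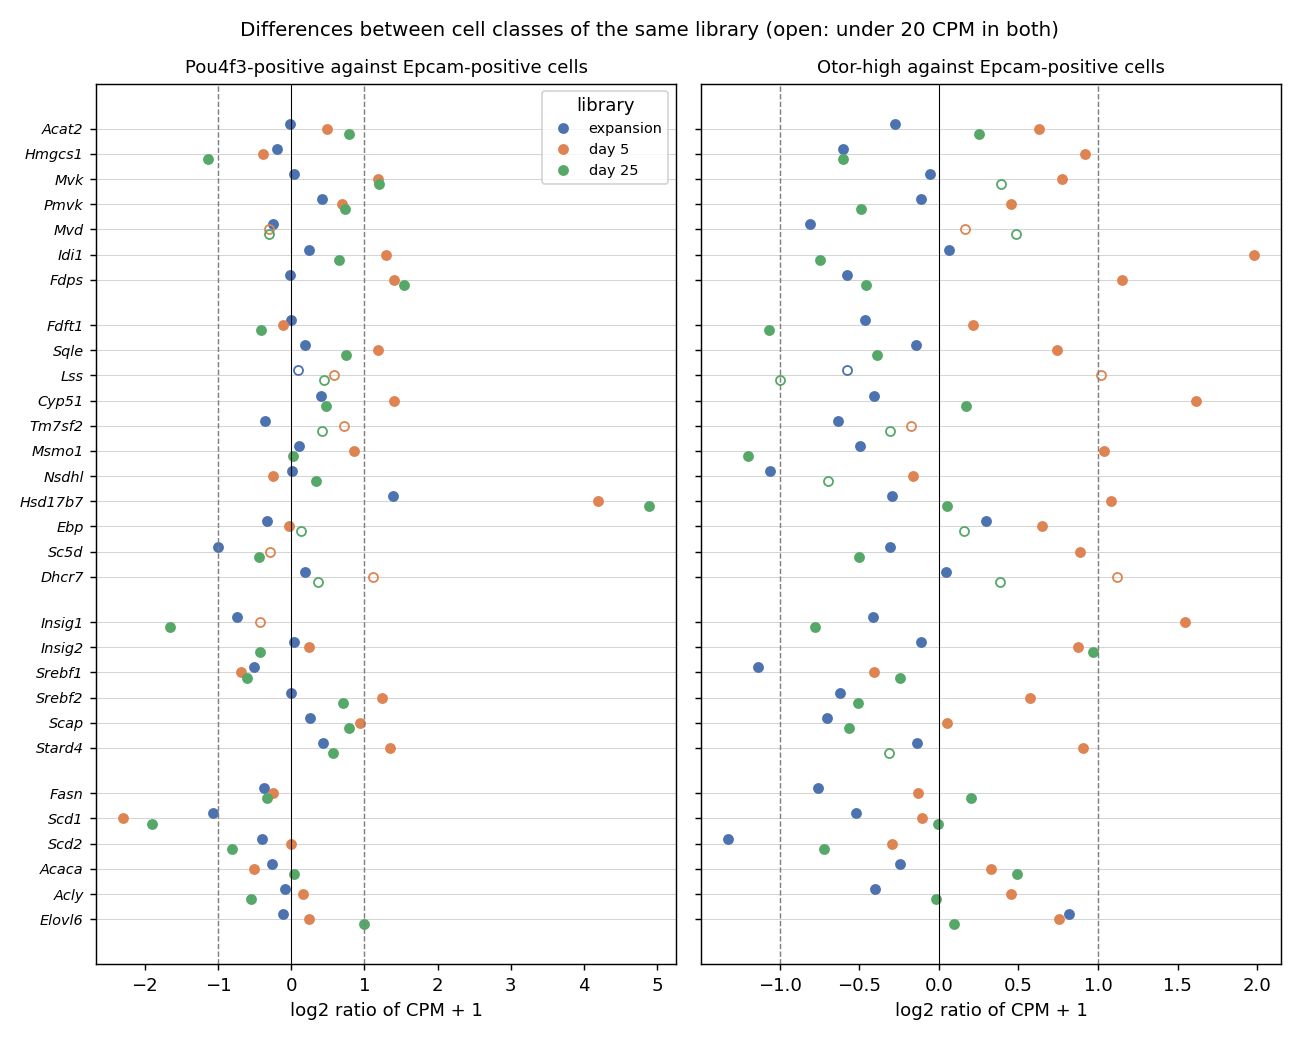
Log2 ratio of CPM + 1 for each member between 2 cell classes of the same library, Pou4f3-positive against Epcam-positive (left) and Otor-high against Epcam-positive (right), with dashed lines at 2-fold and open points where both pools were under 20 CPM. Hsd17b7 lies far to the right on the left side at 1.39, 4.19 and 4.89, and Scd1 to the left at -1.07, -2.30 and -1.90.

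Scd1 was lower in Pou4f3-positive than in Epcam-positive cells of every library. It stood at 46.5 against 98.8 CPM in expansion, 16.0 against 82.9 on day 5 and 48.4 against 183 on day 25, which is 2.13-fold (1.70 to 2.70), 5.17-fold (4.08 to 6.65) and 3.79-fold (3.53 to 4.06) lower. The expansion call was lost with called doublets kept and with stricter gates. Scd2, its close relative on chromosome 19, stood at 538 against 709, 408 against 407 and 316 against 556 CPM and passed 2-fold in none. The day 5 level of Scd1 in Pou4f3-positive cells rested on 69 UMIs.

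Hsd17b7 stood apart from the other members. In Pou4f3-positive cells it stood at 55.8 CPM in expansion (44.8 to 68.5), 202 on day 5 (189 to 216) and 845 on day 25 (831 to 858). Epcam-positive cells held 20.7, 10.1 and 27.5 CPM and Otor-high cells 16.7, 22.6 and 28.6 CPM. Pou4f3-positive cells were 2.70-fold (2.16 to 3.33), 19.9-fold (18.1 to 21.8) and 30.7-fold (29.0 to 32.4) above Epcam-positive cells, and the call held in each library under all 9 alternatives. The day 25 log2 ratio was 4.89, against 3.87 with equal weight per cell and 2.67 with the gates applied to thinned cells. No other gene of the GENCODE M21 annotation overlaps it on either strand of chr1:169949535-169969241.

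Because depth differs between classes, the share of cells with a UMI was taken after thinning each cell to 3000 UMIs and leaving out shallower cells. For Hsd17b7 it was 14.3% of Pou4f3-positive cells in expansion (9.28% to 20.7%, Clopper-Pearson), 43.8% on day 5 (37.5% to 50.3%) and 81.9% on day 25 (79.8% to 83.9%). In Epcam-positive cells it was 5.59%, 2.99% and 7.67%, and in Otor-high cells 4.50%, 6.86% and 8.14%. Without thinning the Pou4f3-positive shares were 36.4%, 59.0% and 89.8% and the Epcam-positive ones 15.0%, 11.1% and 23.6%, at median depths of 7887, 8884 and 9636.5 against 5862, 6249 and 8757 UMIs. Thinning left out 4, 87 and 122 Pou4f3-positive cells and 2664, 996 and 470 Epcam-positive cells. No class is known to lack these enzymes, so no background share could be set. Ocm, a calcium buffer of hair cells, stood at 60.1 CPM in day 25 Epcam-positive cells against 2804 in Pou4f3-positive cells, and the part of free RNA in the lower Hsd17b7 values was not tested.

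**Figure D4:**
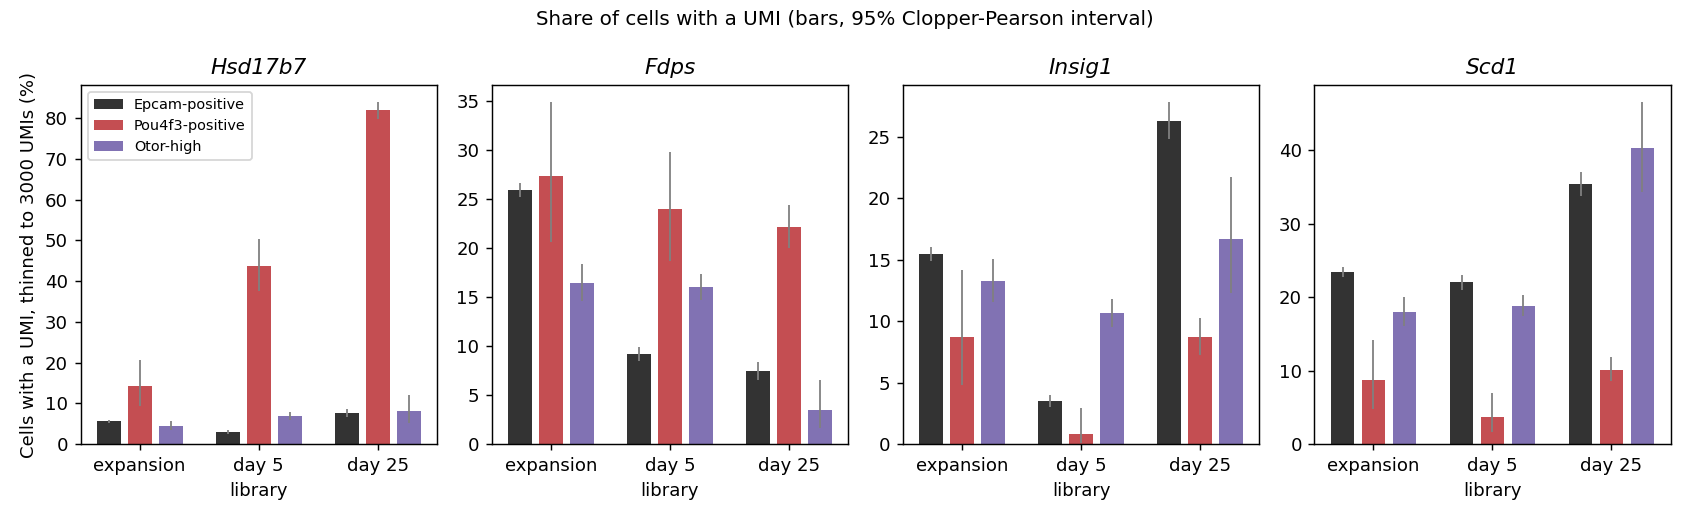
Share of cells with at least 1 UMI of 4 members after thinning to 3000 UMIs, as bars from 0 with 95% Clopper-Pearson intervals, by library and cell class. Hsd17b7 reaches 81.9% of Pou4f3-positive cells on day 25. Insig1 has its lowest bars on day 5 at 3.50% of Epcam-positive and 0.826% of Pou4f3-positive cells, the latter only 2 of 242 cells.

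The shares of 3 other members are given in the same order of libraries. Insig1 was seen in 15.5%, 3.50% and 26.3% of thinned Epcam-positive cells and in 8.70%, 0.826% and 8.69% of Pou4f3-positive cells. The 0.826% rests on 2 of 242 cells (0.100% to 2.95%), and without thinning the share was 9.73%. Fdps was seen in 25.9%, 9.15% and 7.44% of Epcam-positive cells and in 27.3%, 24.0% and 22.2% of Pou4f3-positive cells. Scd1 was seen in 23.4%, 22.0% and 35.5% against 8.70%, 3.72% and 10.2%. On day 25 Pou4f3-positive and Epcam-positive cells thus lay in the same order by share as by summed level for these 3 members.

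On day 25 Pou4f3-positive cells were also split by UMIs of Slc26a5 (prestin, the motor protein of outer hair cells) into 1084 cells with a UMI and 454 without, after the values were seen. Hsd17b7 stood at 931 and 347 CPM, above the 3 Epcam-positive pools in both. Of 26 members 8 were higher in cells with a Slc26a5 UMI and none lower (14.2% and 3.59% of 6907 genes), among them Srebf2 (120 against 55.2 CPM), Cyp51 (110.5 against 53.0 CPM) and Elovl6 (80.1 against 32.3 CPM). The median depth was 11470.5 against 4368.5 UMIs and the median mitochondrial share 10.3% against 1.37%, and the part of depth and cell quality in these differences was not tested.

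Over the 9 pools of 3 classes in 3 libraries, Lss, Sqle and Acat2 followed the mean of the other sterol enzymes most closely (Pearson r of log2(CPM + 1) 0.95, 0.93 and 0.88), and Hsd17b7 and Sc5d least (0.12 and -0.11). Hsd17b7 spanned 83.2-fold between its lowest and highest pool, Insig1 12.1-fold and Scd1 11.4-fold, against 2.14-fold for Fdft1 and 2.18-fold for Elovl6. Among 9255 other genes the 10 most like the mean of the sterol enzymes had r from 0.87 to 0.92, with Vdac3, a mitochondrial outer membrane channel, first and Tcp1, a chaperonin subunit, second. The text names only some of these 10. The pools share libraries and depth, and r is given as a description.

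**Figure D5:**
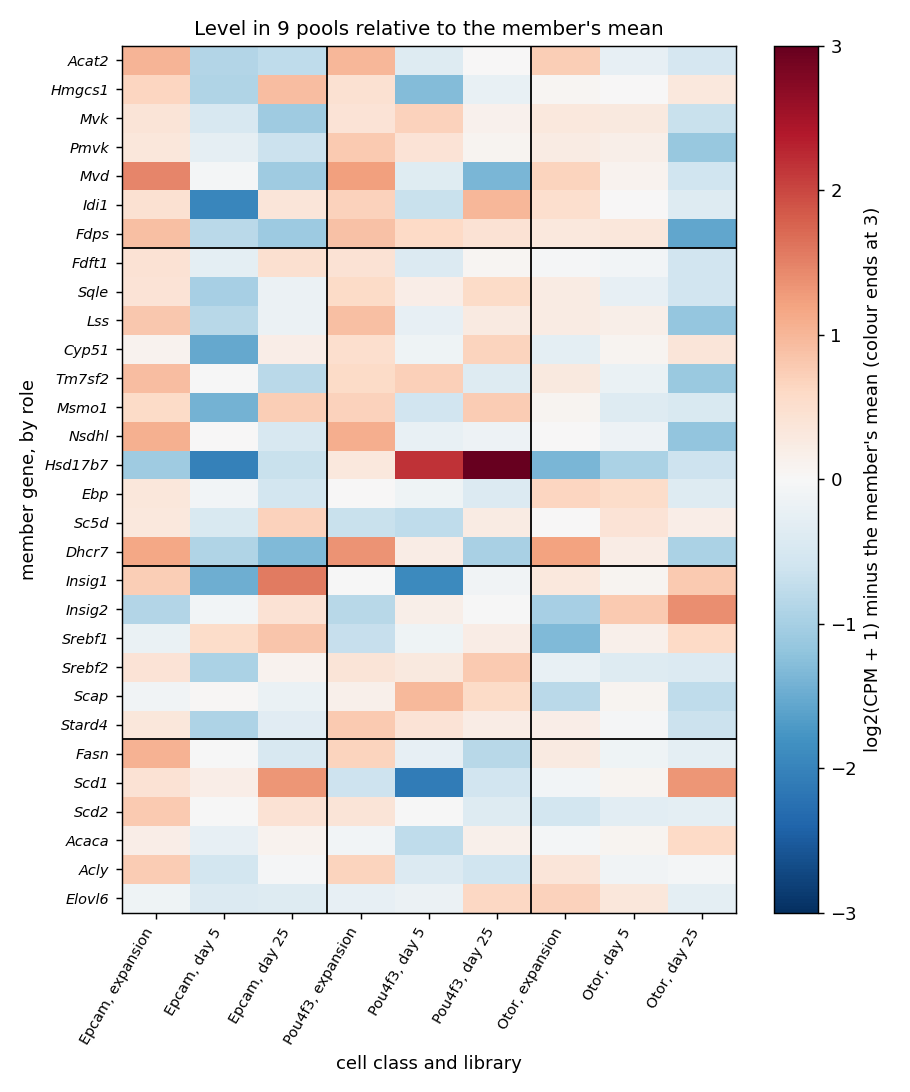
Level of each member in the 9 pools as log2(CPM + 1) minus the member's mean over the pools, rows grouped by role and columns by cell class and library, with the colour scale ending at 3 in both directions. Hsd17b7 stands out in Pou4f3-positive cells of day 25 at 845 CPM, and the Epcam-positive day 5 column holds low points of Idi1 (11.7 CPM), Cyp51 (21.2 CPM) and Insig1 (12.6 CPM).

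Genes of neighbouring pathways were counted in Epcam-positive cells in the same way. Of the list of cholesterol uptake, storage and efflux genes, 3 of 11 tested were higher on day 5 than in expansion, 7 of 11 were higher on day 25 than in expansion and none was lower in either, beside 14.4% and 28.4% of all genes higher and 10.5% and 10.6% lower. Abca1, a cholesterol exporter, stood at 1.54, 66.7 and 84.9 CPM, Abcg1, another exporter, at 1.75, 22.5 and 24.8 CPM, and Soat1, which esterifies cholesterol, at 41.3, 76.4 and 206 CPM. Abca1 and Abcg1 were thus higher on both days than in expansion. Of genes for processing and degradation of the sterol regulatory proteins, 1 of 9 was lower on day 5 and none higher, and it was Tmem97, a sterol-binding membrane protein, at 40.4, 7.53 and 5.34 CPM. Of the isoprenoid branch none of 6 differed by 2-fold on day 5 and 3 of 6 were higher on day 25 than on day 5 (18.6% of all genes). Of fatty acid supply and modification genes 1 of 8 was higher on day 5, the elongase Elovl1, at 50.2 and 240.2 CPM. Of fatty acid oxidation genes 1 of 7 was higher and 1 lower, Ech1 (77.0 and 180.0 CPM) and Acadl (77.1 and 30.3 CPM). Single calls among 7 to 9 genes lie near the day 5 shares over all genes and show nothing particular to these lists on that day. On day 25 against expansion 4 of 8 fatty acid oxidation genes were higher and none lower, beside 28.4% and 10.6% of all genes. In that pair 3 of 9 fatty acid supply and 3 of 10 processing genes were higher and 1 of each list lower. Of the isoprenoid branch 1 of 6 was higher and none lower.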

How the data were processed

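The deposited tables hold raw UMI counts from 10x Genomics 3' (v3) libraries, as the labels' protocols describe them. Per the file headers, the authors ran Cell Ranger, version 3.1.0 on the day 25 library and 3.0.1 on both others. Builds named in the submitters' processing notes are GRCm38 and hg38, and the annotation release and strand setting are not given in the sources used here, so reads of overlapping or antisense genes may not be told apart.

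Barcodes with under 500 genes (935, 550 and 120) or over 20% mitochondrial UMIs (167, 52 and 229) were left out, as were doublets called per library with scanpy 1.11.5, fewer than the barcode number leads one to expect, so doublets remain. Cells with fewer than 2 Pou4f3 UMIs, at least 1 Epcam UMI and Otor under 20 UMIs in 10000 formed the Epcam-positive class, and Otor-high cells also had fewer than 2 Pou4f3 UMIs. Cells in no class numbered 6427, 2165 and 466. UMIs were summed over cells (187060578, 131821582 and 72329429 in whole libraries), scaled to CPM over all genes, and given exact Poisson intervals. Folds are ratios of CPM with exact conditional binomial intervals, and log2 ratios are of CPM + 1. Intervals cover counting error only. A gene at 0 is listed with 3 UMIs as its limit. Mitochondrially encoded genes were left out of counts of genes.

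All 30 members are accounted for. Those with 20 CPM in a library are named, from each other list the 3 genes with the largest log2 ratio could be named, and the text names some of them. Proteins were not used here. The members and lists were chosen with earlier results of these data known. The counting was also run on simulated whole libraries with known folds and counting error only. There all genes set at 3-fold and 5-fold were called and none set at 1.5-fold. This run does not cover the smaller class pools or differences between libraries, so it tells nothing about how stable the calls are there. Alternatives were scaling by TMM or by the median of ratios, a total without ribosomal and mitochondrial genes, a 1 CPM filter, a pseudocount of 5, doublets kept, equal weight per cell, stricter gates (4 Pou4f3 UMIs, 3 Epcam UMIs, Otor at 50 in 10000) and cells thinned to 3000 UMIs with the gates applied afterwards. For shares of cells, classes were set before thinning. The 1 CPM filter changes which genes are counted and leaves their ratios as they were. Every single call therefore held under that filter by construction, and the filter tells nothing about how stable a call is.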

Additional observations from a re-analysis of the deposited data

Results flagged for a closer look

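Msmo1 lay on opposite sides of 2-fold in the same contrast of cell classes on the 2 days of differentiation. Between Otor-high and Epcam-positive cells its log2 ratio was 1.04 on day 5 (42.1 against 20.0 CPM) and -1.20 on day 25 (40.1 against 93.3 CPM). The level in Otor-high cells was nearly the same on both days, and that in Epcam-positive cells was not. With 1 library per group the difference was not tested, and neither call held under all 9 alternatives.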

How the results depend on the processing

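No paired analysis was possible because each group held 1 library, and for the same reason no replicate could be left out. Of the counts of members under alternatives 258 stayed within 1.5 times and 66 did not. The counts under alternatives below have no share over all genes beside them, so they show how counts moved and nothing particular to the members. Of single log2 ratios 2711 lay within the counting interval of the main fold and 1444 lay outside it. These numbers and the sign counts below include the ratios under the 1 CPM filter, which equal the main values by construction. Of 3026 ratios whose main value was under 2-fold, 243 changed sign (main log2 ratio at most 0.74). These sign changes were counted apart from that division and can lie on either side of it. Of ratios past 2-fold 1 changed sign: Scd1, day 5 against expansion, Pou4f3 class, was 0.34 after thinning cells, against -1.48. The cause was not tested. With TMM scaling, counts in whole libraries became 0 higher and 17 lower (day 5 against expansion), 4 higher (day 25 against day 5) and 1 higher and 12 lower (day 25 against expansion). In classes TMM gave 0 higher in Epcam-positive cells (day 25 against expansion), 1 higher in Pou4f3-positive cells (day 5 against expansion), and in Otor-high cells 2 lower (day 5 against expansion), 0 higher and 6 lower (day 25 against day 5) and 16 lower (day 25 against expansion). Within expansion it gave 2 lower in Pou4f3-positive and 1 lower in Otor-high against Epcam-positive cells. Median of ratios scaling gave the same counts as TMM in these comparisons, except 16 lower in whole libraries on day 5, and it also gave 9 lower in Pou4f3-positive cells (day 25 against expansion) and 1 higher in Otor-high against Epcam-positive cells of expansion. A total without ribosomal and mitochondrial genes gave 0 higher (day 5 against expansion) and 11 lower (day 25 against expansion) in whole libraries. In classes it gave 0 higher in Epcam-positive cells (day 25 against expansion), 1 higher in Pou4f3-positive cells (day 5 against expansion) and 2, 5 and 15 lower in Otor-high cells (day 5 against expansion, day 25 against day 5, day 25 against expansion). Within libraries it gave 2 lower in Pou4f3-positive and 1 lower in Otor-high cells of expansion and 1 higher in Otor-high cells of day 25. The 1 CPM filter gave 1, 1, 3 and 5 lower on day 25 against day 5 in whole libraries, Epcam-positive, Pou4f3-positive and Otor-high cells. A pseudocount of 5 gave 1 higher in Epcam-positive cells (day 25 against expansion), 1 higher in Pou4f3-positive cells (day 5 against expansion), 4 lower in Otor-high cells (day 25 against expansion) and 1 lower in Otor-high against Epcam-positive cells of day 25. With doublets kept, 0 members were lower in Pou4f3-positive cells of expansion. Equal weight per cell gave 6 lower in whole libraries on day 5, 4 higher in Epcam-positive cells (day 25 against expansion), 1 higher (day 5 against expansion) and 1 lower (day 25 against day 5) in Pou4f3-positive cells and 5 lower in Otor-high cells (day 25 against day 5). Within libraries it gave 2, 2 and 5 lower in Pou4f3-positive cells of expansion, day 5 and day 25 and 1 higher in Otor-high cells of expansion. Stricter gates gave 1 lower (day 25 against day 5) and 3 higher (day 25 against expansion) in Pou4f3-positive cells and 0 lower in Otor-high against Epcam-positive cells of day 25. Thinned cells gave 1 lower (day 25 against day 5) and 3 higher (day 25 against expansion) in Pou4f3-positive cells, 5 lower in Otor-high cells (day 25 against day 5), 3 and 4 lower in Pou4f3-positive against Epcam-positive cells of expansion and day 5, 1 higher in Otor-high cells of day 25, and 2 higher and 3 lower in Car9-positive cells of day 5. Stricter division and Car9 gates and thinning were not run where they left under 50 cells. Depth limits the Pou4f3-positive class of expansion and the Otor-high class of day 25 most, with 165 and 270 cells.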

Other observations

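Some genes of the neighbouring lists also differed between Pou4f3-positive and Epcam-positive cells of the differentiation libraries. Acss2, which makes acetyl-CoA from acetate, stood at 70.9 against 3.67 CPM on day 5 and at 415 against 10.3 CPM on day 25. Lrp8, a lipoprotein receptor, stood at 37.2 against 0.30 CPM and at 51.5 against 1.13 CPM, and Cyp46a1, a cholesterol hydroxylase known mainly from neurons, at 23.4 against 1.86 CPM on day 25. On the other side were Npc2, which carries cholesterol out of lysosomes, at 66.3 against 393 and 49.3 against 524 CPM, and the elongase gene Elovl1, at 32.1 against 240.2 and 8.39 against 106.8 CPM. Elovl5, an elongase of polyunsaturated fatty acids, stood at 3.49 against 23.8 and 2.76 against 31.5 CPM. Of the fatty acid supply and modification list 4 genes were higher and 2 lower of 10 on day 5, and 1 was higher and 4 lower of 10 on day 25. Of the cholesterol uptake, storage and efflux list 4 were higher and 4 lower of 12 on day 5, and 5 higher and 2 lower of 13 on day 25. Of all genes 20.1% were higher and 15.9% lower on day 5, and 20.3% and 18.1% on day 25. With 10 to 13 genes tested in a list, these counts are small and are given as a description only. These genes were named by the size of their ratio, and no test was made with 1 library per group.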
